A study of Mus musculus with 8 samples.

Results

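The 45 DNA replication genes analyzed here code for the proteins that license replication origins, unwind and copy the DNA, supply its building blocks and switch these genes on. The list follows the known function of the genes and was drawn up with earlier results of these data known. Its members were found by matching GRCm38 gene names to the Ensembl identifiers of the count table. All 45 of 45 were present among its 55487 genes, and all 45 were among the 20610 genes with at least 10 reads over the 8 libraries. By role they comprised 13 licensing genes, 6 genes of helicase activation, 8 polymerase and primase subunits, 11 genes of the sliding clamp, its loader, single-strand binding and lagging-strand maturation, 4 genes of nucleotide supply and 3 E2F transcription factors.

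The libraries were bulk RNA-seq of 500 long-term hematopoietic stem cells (LT-HSCs) each, sorted as LSK CD48-CD150+ cells from fetal liver at E14.5. *IκBα*, encoded by *Nfkbia*, holds NF-κB back in the cytoplasm, and the embryos came from matings of heterozygous carriers of a targeted germline *Nfkbia* allele, so that the liver around the KO cells lacked the gene too. There were 3 WT, 3 HET and 2 KO libraries, and the study discarded 1 further KO library for its sequencing quality. WT1, WT2 and HET1 were male with total RNA in the labels, whereas WT3, HET2, HET3, KO1 and KO2 were female with polyA RNA, so sex and the recorded molecule cannot be told apart and both KO libraries were female.

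Before a cell divides, the origin recognition complex (ORC) with CDC6 and CDT1 loads the MCM2-7 ring onto DNA in G1, and geminin blocks a second loading. CDC45 and GINS join the ring at the start of S phase to form the active helicase, after which polymerase α-primase lays down primers and polymerases δ and ε extend them on the PCNA clamp. Ribonucleotide reductase, thymidylate synthase and thymidine kinase supply the nucleotides, and E2F factors drive or restrain many of these genes at the G1/S transition. Fetal liver stem cells are known to cycle, and erythroid progenitors, which are abundant around them, cycle rapidly.

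Many of the 45 genes have E2F-type letters around their start sites, and 4 windows are shown here, chosen after the search, to show what such letters look like: 2 of the MCM ring with several matches, and the pair of ribonucleotide reductase genes with 1 match and none. The RefSeq promoter windows (GRCm38.p6, 250 bases before to 50 after each start) were found for 37 of the 45 genes. On both strands 3 forms of 7 letters were searched. The first form was TTCCCGC. The second form was TTGGCGC. The third form was TTCGCGC, which can overlap the second on the other strand. At least 1 form stood in the windows of 23 of the 37 genes (62.2%) and of 9.2% of the 27025 genes with a window. Counting only the bases before the start site, it was 15 of the 37 (40.5%) against 7.68% of all. The first form was in 35.1% of the 37 genes against 5.29% of all, the second in 32.4% against 2.85% and the third in 18.9% against 1.81%. The CCAAT box, searched on both strands, was in 64.9% against 41.1%. The windows below hold only the bases before the start site, 5′ to 3′ on the strand of the gene, with the matches in capitals.
*Mcm5*, chr8:75109259-75109508, plus strand: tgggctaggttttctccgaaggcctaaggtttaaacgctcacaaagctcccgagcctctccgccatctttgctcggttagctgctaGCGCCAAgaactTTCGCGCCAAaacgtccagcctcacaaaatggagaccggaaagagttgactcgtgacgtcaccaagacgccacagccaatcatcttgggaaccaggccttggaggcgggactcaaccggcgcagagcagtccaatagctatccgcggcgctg
*Mcm6*, chr1:128359706-128359955, minus strand: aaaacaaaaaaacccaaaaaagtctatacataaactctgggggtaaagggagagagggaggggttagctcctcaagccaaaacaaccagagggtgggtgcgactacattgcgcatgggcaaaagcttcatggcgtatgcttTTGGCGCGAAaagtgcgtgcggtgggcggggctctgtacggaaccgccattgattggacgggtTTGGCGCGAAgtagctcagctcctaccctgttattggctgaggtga
*Rrm1*, chr7:102441445-102441694, plus strand: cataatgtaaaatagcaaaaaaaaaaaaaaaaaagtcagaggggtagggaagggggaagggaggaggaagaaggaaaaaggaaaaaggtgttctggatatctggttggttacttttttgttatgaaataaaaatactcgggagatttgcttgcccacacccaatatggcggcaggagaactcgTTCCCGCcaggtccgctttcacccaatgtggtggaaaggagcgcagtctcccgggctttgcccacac
*Rrm2*, chr12:24708004-24708240, plus strand: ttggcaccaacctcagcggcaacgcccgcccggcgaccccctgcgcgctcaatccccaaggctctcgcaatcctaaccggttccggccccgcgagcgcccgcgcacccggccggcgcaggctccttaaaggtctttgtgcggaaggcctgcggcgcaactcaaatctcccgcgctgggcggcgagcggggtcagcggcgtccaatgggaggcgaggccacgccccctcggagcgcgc
*Mcm5* held 3 matches, the last pair overlapping, and *Mcm6* held 4 in separate overlapping pairs. *Rrm1* held 1, and *Rrm2* held none of these letters in this window. The 14 genes without a match in their window included *Pcna*, *Rrm2*, *Orc2*, *Orc6*, *Mcm2* and *E2f1*. A match is a run of letters and was not tested as a binding site.

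Between 17895973 and 21720972 reads per library lay on genes, so that 3 reads corresponded to 0.125 to 0.178 CPM, the count scaled to a common library total by TMM. *Nfkbia* had 968, 1621 and 450 reads in WT1 to WT3, 439, 574 and 243 in HET1 to HET3, and 1 and 0 in KO1 and KO2. The labelled cell type was checked with 7 LT-HSC markers, *Kit*, *Ly6a*, *Slamf1*, *Procr*, *Mecom*, *Hlf* and *Gata2*. Their summed level was 1134 and 1194 CPM in WT1 and WT2, 1030.3 and 771 CPM in KO1 and KO2, 430 and 392 CPM in HET1 and HET2, but 235 CPM in WT3 and 223 CPM in HET3. In HET3, *Ly6a*, the gene of the SCA1 antigen used in the sort, was at 0 CPM, *Procr* at 1.13 CPM and *Mecom* at 1.36 CPM, and in WT3 they were at 4.998, 8.49 and 10.05 CPM. WT3 and HET3 thus held the least of the transcripts that mark the labelled cell type. The erythroid regulator *Klf1* stood at 1040 and 1227 CPM in these 2 libraries, 731 and 940 CPM in HET1 and HET2, 518 CPM in KO2 and 36.2 to 114 CPM in WT1, WT2 and KO1. The sum of 9 erythroid markers ordered the libraries otherwise, with HET1 and HET2 above WT3 and HET3, and KO2 close to WT3. It was 1610, 1327.5 and 3463 CPM in WT1 to WT3, 14813, 5740 and 3999.5 CPM in HET1 to HET3, and 767 and 3350 CPM in KO1 and KO2. The sum of 7 hepatocyte markers ran from 7.53 CPM in KO1 to 1287 CPM in WT3 and 632 CPM in HET3. Transcripts of 3 other cell types were also lowest in WT3 and HET3. The sum of 5 megakaryocyte markers ran from 61.5 to 1258 CPM in WT, 23.3 to 429 CPM in HET and 107 to 1009 CPM in KO, that of 5 lymphoid markers from 12.2 to 98.4, 2.13 to 36.0 and 52.2 to 82.2 CPM, and that of 5 endothelial markers from 10.2 to 94.8, 2.08 to 36.0 and 45.6 to 82.1 CPM, each with HET3 lowest and WT3 next. The 8 neutrophil and monocyte markers summed to 156 CPM in HET3 and 1100 CPM in WT3, the ends of their range, 6 macrophage markers to 9.69 CPM in KO1 up to 247 CPM in WT3, and *Cd48* stood at 45.8 to 89.1 CPM. Each comparison is therefore given with and without WT3 and HET3.

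The replication genes were most abundant in the libraries with the fewest stem cell transcripts. Their summed level was 8440, 7412 and 11661 CPM in WT1, WT2 and WT3, 11009, 10826 and 12917 CPM in HET1, HET2 and HET3, and 7821 and 9727 CPM in KO1 and KO2. HET3 and WT3 were highest, HET1 and HET2 next, and WT2 lowest, with both KO libraries inside the range of the 6 others. With library size as the only scaling the span narrowed to 8597 to 11048 CPM and HET1, at 10676 CPM, passed WT3, at 10310 CPM. The order by the LT-HSC markers was the reverse, apart from the neighboring pairs of KO1 with WT1 and of HET1 with HET2. Gene by gene, HET3 held the highest level for 23 of the 45 genes (17.3% of all tested genes) and WT2 the lowest for 25 (17.8%). The part of these other cell types' transcripts and of the stem cell transcripts in the levels was not tested, and in such bulk libraries fewer cycling cells and less RNA per cell cannot be told apart.

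**Figure D1:**
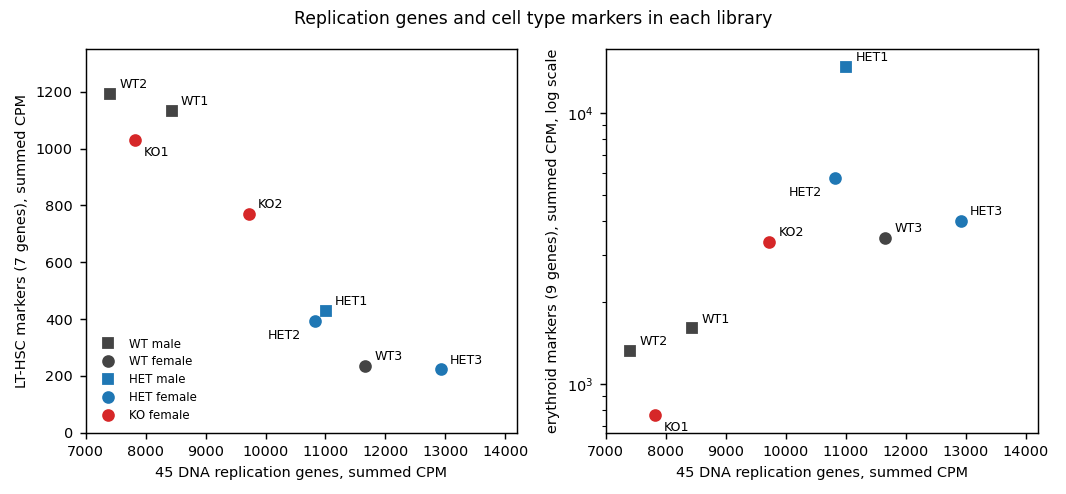
Each point is 1 library, placed by the summed CPM of the 45 replication genes (x axis) and of 7 LT-HSC markers (left) or 9 erythroid markers (right, log scale), with squares for male and circles for female libraries. WT2, KO1 and WT1 sit at 7412 to 8440 CPM of replication genes with 1030.3 to 1194 CPM of LT-HSC markers, and WT3 and HET3 at 11661 and 12917 CPM with 235 and 223 CPM.

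Levels between genes were compared per kilobase of exon, as the mean CPM of the 8 libraries. They ran from 2.67 CPM per kb for *E2f2* and 2.96 for *Fen1* to 204.5 for *Mcm6*. The length was the union of all annotated exons, so genes with exons used in few transcripts read low and ranks per kilobase are uncertain. Of the exon bases of *Fen1*, the flap endonuclease that trims Okazaki fragments, 84.2% are shared with *Tmem258* and *Gm10143*, and of those of the GINS subunit gene *Gins2*, 67.3% with *Gse1*. Reads on bases shared by several genes are uncertain in such counts, so the low level of *Fen1* is uncertain too. In all 16 of the 45 genes share exon bases with a neighbor. The spread over libraries differed widely among the genes, from a ratio of highest to lowest library of 1.16 for *Rfc1*, the large subunit of the clamp loader, to 4.12 for *Orc2*. Of the exon bases of *Orc2*, 29.8% are shared with *Nif3l1*, so its counts are uncertain in part.

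**Figure D2:**
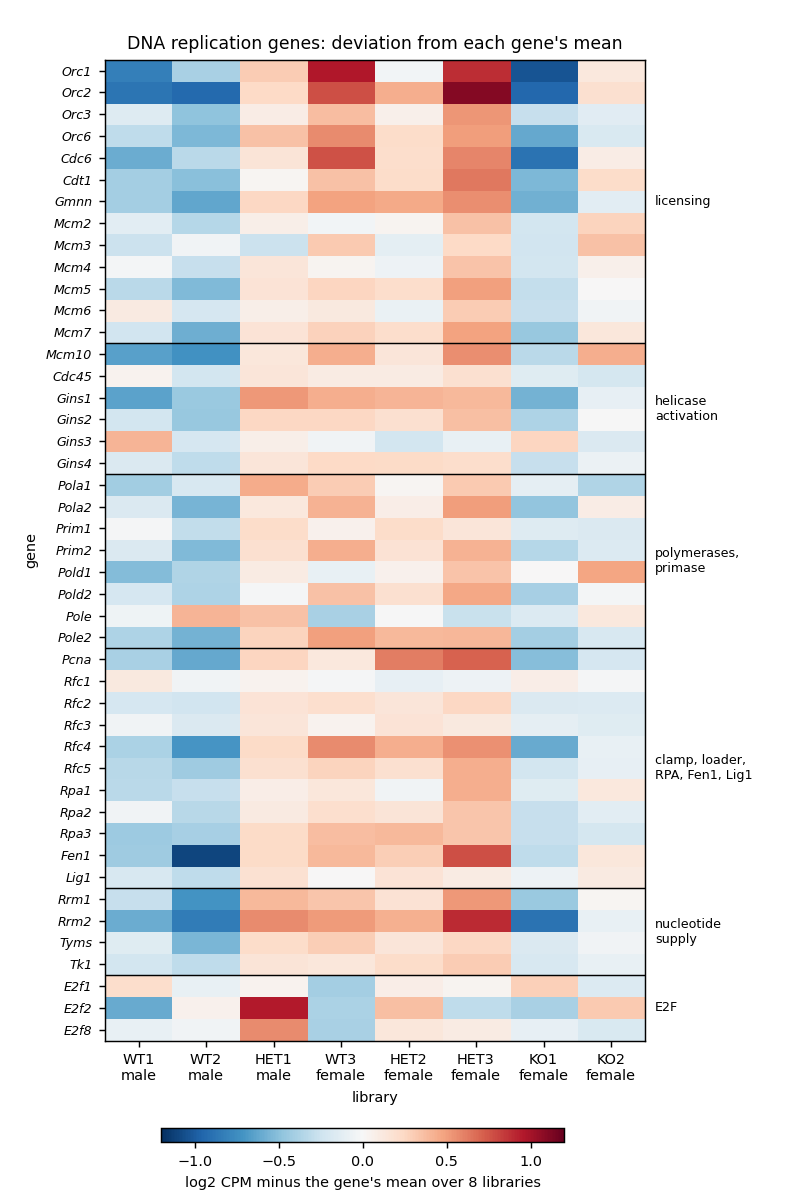
Each cell shows the log2 CPM of 1 gene (row, grouped by role) in 1 library (column, males left, females right) minus the mean of that gene over the 8 libraries, blue for lower and red for higher. WT1, WT2 and KO1 are blue for most genes, and WT3 and HET3 are red for most, while *Rfc1*, *Gins3*, *Pole* and the 3 E2F genes do not share this pattern. *Pold1* shares it only in part, with KO2 highest.

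To ask whether loss of *IκBα* altered the replication program, KO was compared with WT and HET pooled, with sex in the model as in the study's methods. Most of the 45 genes were lower in KO, but none passed the test. The log2 fold change was negative for 39 genes and positive for 6, *Gins3*, *Pold1*, *Pole*, *Rfc1*, *E2f1* and *E2f2*, with a median of -0.45 against 0.13 over all genes. At an unadjusted p under 0.05, 14 genes were lower (9.48% of all tested genes were) and 0 were higher (15.7%). At an adjusted p under 0.05 the count was 0 (0% of all genes), and the smallest adjusted p among the 45 was 0.152, for *Gmnn* (edgeR quasi-likelihood test). With library size as the only scaling, 4 genes were lower and 1 higher at an unadjusted p under 0.05, while the median of all genes stood at 0.41 instead of 0.13. The share of all genes at this p is not given for that scaling. With DESeq2, 20 genes were lower at an unadjusted p under 0.05 (12.3%) and 6 reached an adjusted p under 0.05 (13% of all genes in either direction), *Gmnn*, *Rfc4*, *Pcna*, *Orc6*, *Pold2* and *Pole2*. None of the 6 passed the shrunken log2 fold change of 1 that the methods also ask for (0.597% of all genes did on the lower side).

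The comparison leaned on which libraries served as the reference. Because both KO libraries were female, the model with sex sets them against WT3, HET2 and HET3. Both KO libraries lay below these 3 female libraries for 28 of the 45 genes (21.4% of all genes) and above them for 0 (27.1%). Against the 3 male libraries they lay below for 1 gene, *E2f8* (5.98%), and above for 0 (6.18%), and against all 6 for 0 in either direction (1.79% below and 3.05% above). With the male libraries alone as the reference the median log2 fold change was -0.05, with 28 genes lower and 17 higher, and no gene had an unadjusted p under 0.05 (0.78% of all genes were lower and 0.686% higher). Without WT3 and HET3 the median was -0.37 and 40 of 45 genes were lower, of which 1, *Pcna*, had an unadjusted p under 0.05 (1.05%), with 0 higher (4.18%). With sex in the model that fit set KO against HET2, the only female WT or HET library left, with 392 CPM of LT-HSC markers. By level, both KO libraries lay below the 4 WT and HET libraries left for 1 gene, *E2f8* (3.21%), and above for 0 (4.35%). Without sex in the model 0 genes were lower (0.922%) and 0 higher (1.08%) at an unadjusted p under 0.05. The counts that follow stand without the share of all genes, so their shifts are not read as particular to the replication genes. The count of 14 became 7 without WT3, 5 without HET3, 0 without KO1 and 27 without HET1.

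The same female libraries that set this reference differed from KO in their markers. All 7 LT-HSC markers were above WT3, HET2 and HET3 in both KO libraries, and their median log2 fold change in the comparison was 2.47. It was negative for 7 of 9 erythroid markers, with a median of -1.28, and for 7 of 7 hepatocyte markers, with a median of -3.05. The 14 genes of the proliferation reference, such as *Mki67* and *Cdk1*, had a median of -0.60. Their part in the lower replication genes was not tested.

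**Figure D3:**
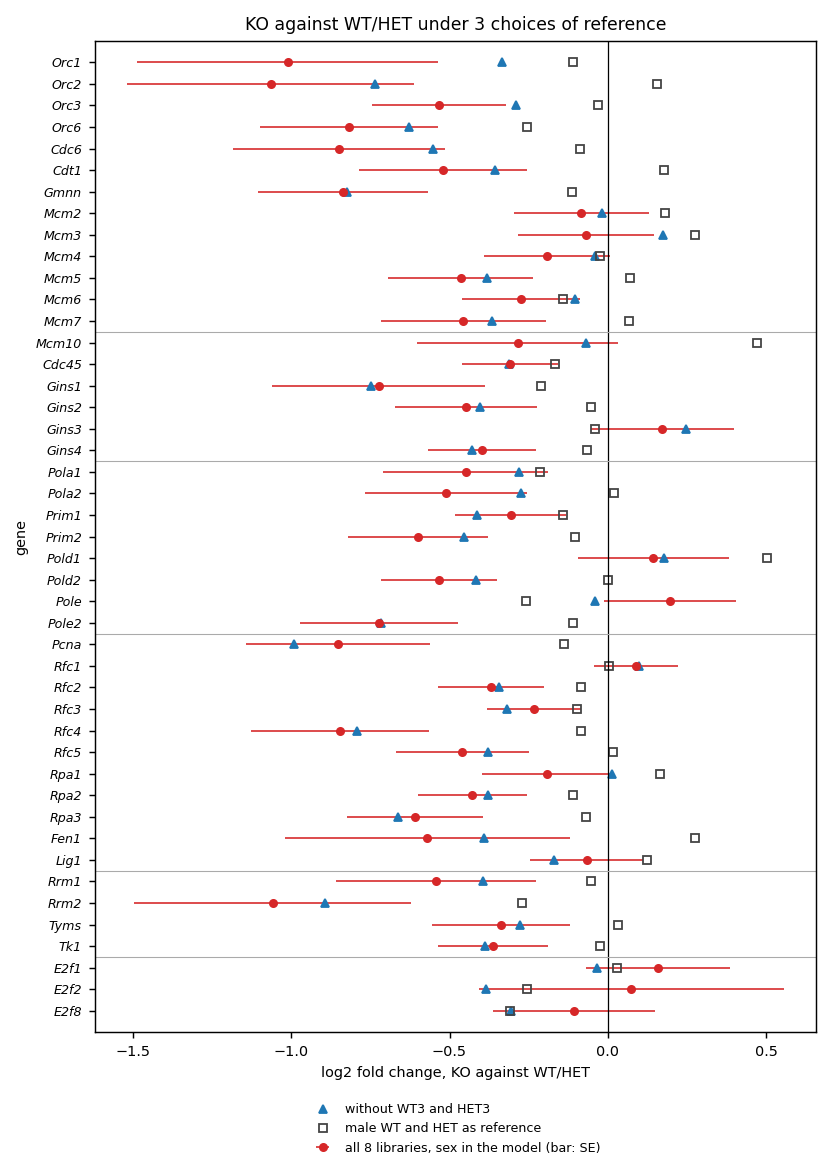
Log2 fold change of KO against WT/HET for the 45 genes (rows, grouped by role): red circles with bars (SE) use all 8 libraries with sex in the model, blue triangles leave out WT3 and HET3, and open squares use the male WT and HET libraries as reference. The red circles run from -1.06 to 0.20 with a median of -0.45, and the open squares from -0.31 to 0.50 with a median of -0.05. For the blue triangles HET2 is the only female reference left.

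Among the licensing genes, all 13 had a negative log2 fold change in KO (median -0.52) and 5 of them an unadjusted p under 0.05. The ORC genes, which mark the origins, were the lowest of the complexes, at a median of -0.91. *Orc6* was at 165, 140 and 303 CPM in WT1 to WT3, 259, 237 and 288 CPM in HET1 to HET3, and 133 and 180 CPM in KO1 and KO2. KO1 was the lowest of the 8 libraries, whereas KO2 lay above WT1 and WT2. The mean was 232 ± 66.0 CPM (SD, n = 6) in WT and HET and 157 ± 33.0 CPM (SD, n = 2) in KO. With sex in the model, which sets KO against the female libraries, the log2 fold change was -0.82 ± 0.28 (SE, edgeR, adjusted p = 0.156). Without sex it was -0.57.

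*Orc2* varied the most of the 45 genes, with 67.9, 65.6 and 214 CPM in WT, 148, 170 and 269 CPM in HET, and 65.2 and 143 CPM in KO. KO1 was level with WT1 and WT2, and KO2 came close to HET1. Its log2 fold change was -1.06 ± 0.45 (SE, adjusted p = 0.191). *Orc1*, an ATPase subunit of ORC, had the lowest level of the licensing genes per kilobase, with 17.9, 24.2 and 61.8 CPM in WT, 39.3, 30.9 and 58.7 CPM in HET, and 15.5 and 34.6 CPM in KO. KO2 lay above HET2, so that the KO and female libraries overlapped. *Orc3* was at 200, 159 and 286 CPM in WT, 235, 231 and 320 CPM in HET, and 183 and 202 CPM in KO, both KO values being above WT2.

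The loading factors and their inhibitor shared the low level of WT1, WT2 and KO1. *Gmnn*, which codes for geminin and had the smallest p-value of the 45 genes, was at 211, 181 and 392 CPM in WT, 331, 384 and 411 CPM in HET, and 187 and 256 CPM in KO. WT1, WT2 and KO1 formed the low end, and KO2 lay between them and HET1. Its mean was 318 ± 98.7 CPM (SD, n = 6) in WT and HET and 221 ± 48.6 CPM (SD, n = 2) in KO. The log2 fold change was -0.84 ± 0.27 (SE) with sex in the model and -0.52 without it. The exact two-sided permutation test of the 8 libraries, which takes no account of sex, gave p = 0.357. The smallest p that 2 against 6 libraries allow is 0.0714.

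*Cdc6*, an ATPase that works with ORC to load the ring, was at 78.4, 94.6 and 201 CPM in WT, 133, 137 and 178 CPM in HET, and 64.4 and 127 CPM in KO. KO1 was the lowest library and KO2 stood just under HET1. *Cdt1*, which brings the ring to ORC and is the target of geminin, was at 124, 117 and 211 CPM in WT, 168, 192 and 256 CPM in HET, and 114 and 193 CPM in KO. KO2 here was level with HET2, and the log2 fold changes were -0.85 ± 0.34 (SE) for *Cdc6* and -0.52 ± 0.27 (SE) for *Cdt1*.

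The 6 genes of the MCM ring had smaller log2 fold changes than the 7 other licensing genes. Their log2 fold changes in KO lay between -0.46 for *Mcm5* and -0.07 for *Mcm3*, with a median of -0.23, and 0 of 6 had an unadjusted p under 0.05. The sum of the 6 genes was 2683, 2322 and 3164 CPM in WT, 2973, 2872 and 3642 CPM in HET, and 2350 and 3045 CPM in KO. KO1 was level with WT2, and KO2 exceeded all but WT3 and HET3. The mean was 2943 ± 446 CPM (SD, n = 6) in WT and HET and 2698 ± 492 CPM (SD, n = 2) in KO, whereas with library size as the only scaling KO was the higher, at 2895 against 2845 CPM. Per kilobase of annotated exon the values of the subunits differed, although the ring holds 1 of each. They were 55.8 for *Mcm2*, 74.9 for *Mcm7*, 102 for *Mcm3*, 106 for *Mcm5*, 112 for *Mcm4* and 204.5 CPM per kb for *Mcm6*. The union of exons was 6956 bp for *Mcm2* and 3589 to 4666 bp for the others. Exons used in few transcripts lower such a value, so the order of the subunits is uncertain. *Mcm6* was at 1019, 825 and 1026 CPM in WT, 992, 898 and 1169 CPM in HET, and 784 and 920 CPM in KO, where KO1 was the lowest library and KO2 lay above HET2 and WT2.

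Of the 6 genes of helicase activation, 5 had a negative log2 fold change in KO (median -0.35) and 1, *Gins4*, an unadjusted p under 0.05. *Gins4*, the most abundant of them per kilobase, was at 142, 130 and 190 CPM in WT, 178, 188 and 186 CPM in HET, and 133 and 152 CPM in KO. WT1, WT2 and both KO libraries lay below the other 4, and the log2 fold change was -0.40 ± 0.17 (SE). *Mcm10*, which helps to switch the helicase on, was the least abundant per kilobase, with 56.5, 53.8 and 120 CPM in WT, 97.4, 98.1 and 130 CPM in HET, and 71.0 and 120 CPM in KO. KO2 reached the level of WT3, and the log2 fold change of -0.28 became 0.47 with the male libraries as the reference. *Cdc45*, the partner of the ring and of GINS, was at 123 to 162 CPM in WT and HET and 129 and 123 CPM in KO.

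The polymerase and primase subunits were not alike. Of the 8 genes, 6 had a negative log2 fold change in KO (median -0.48), and the 3 with an unadjusted p under 0.05 were *Pold2*, *Pole2* and *Prim2*, none of which is a polymerase's catalytic subunit. The catalytic subunits of polymerases δ and ε, *Pold1* and *Pole*, had log2 fold changes of 0.14 ± 0.24 (SE) and 0.20 ± 0.21 (SE). *Pold2*, the accessory subunit of polymerase δ, was at 213, 190 and 312 CPM in WT, 243, 280 and 339 CPM in HET, and 187 and 242 CPM in KO. KO1 was the lowest library and KO2 was level with HET1, so that the groups overlapped, and the log2 fold change was -0.53 ± 0.18 (SE, adjusted p = 0.156).

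*Pole2*, the second subunit of polymerase ε, was at 55.3, 48.2 and 100 CPM in WT, 86.3, 93.6 and 94.1 CPM in HET, and 53.9 and 62.5 CPM in KO. Both KO libraries lay with WT1 and WT2 and apart from the other 4, and the log2 fold change was -0.72 ± 0.25 (SE). *Prim2*, the large primase subunit, was at 115, 89.4 and 175 CPM in WT, 148, 146 and 173 CPM in HET, and 102 and 115 CPM in KO, again with KO beside WT1 and WT2. *Pole* was the least abundant of the 8 genes per kilobase, with 50.2, 68.9 and 39.6 CPM in WT, 66.2, 51.9 and 43.4 CPM in HET, and 46.3 and 56.7 CPM in KO. Its order was its own, with WT3 and HET3 lowest. *Pold1* was at 71.1, 79.1 and 95.8 CPM in WT, 109, 106 and 129 CPM in HET, and 102 and 142 CPM in KO, with KO2 the highest library.

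Among the 11 genes at the clamp and on the lagging strand, 10 had a negative log2 fold change in KO (median -0.43) and 4 an unadjusted p under 0.05, *Rfc4*, *Pcna*, *Rpa3* and *Rpa2*. *Pcna*, the sliding clamp, was at 110, 94.95 and 159 CPM in WT, 174, 222 and 237 CPM in HET, and 102 and 126 CPM in KO. WT1 and WT2 lay around KO1, and all HET libraries stood above all WT libraries and both KO libraries. The mean was 166 ± 57.2 CPM (SD, n = 6) in WT and HET and 114 ± 17.1 CPM (SD, n = 2) in KO. With sex in the model the log2 fold change was -0.85 ± 0.29 (SE, edgeR, adjusted p = 0.156), and without sex it was -0.54. Without WT3 and HET3 the log2 fold change was -0.99, with HET2 as the only female reference left.

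*Rfc4*, a small subunit of the clamp loader with the highest level per kilobase of this group, was at 191, 152 and 367 CPM in WT, 290, 335 and 362 CPM in HET, and 162 and 232 CPM in KO. Its KO libraries bracketed WT1, and the log2 fold change was -0.85 ± 0.28 (SE, adjusted p = 0.154). The 5 subunits of the loader differed, since *Rfc1* stayed between 179 and 207 CPM in all 8 libraries with a log2 fold change of 0.09 ± 0.13 (SE). *Rpa3*, the smallest subunit of the single-strand binding protein, was at 113, 115 and 196 CPM in WT, 178, 199 and 192 CPM in HET, and 125 and 131 CPM in KO. WT1, WT2 and both KO libraries were the 4 lowest. *Fen1* was at 3.13 to 11.5 CPM in WT and HET and 5.43 and 7.37 CPM in KO.

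All 4 genes of nucleotide supply had a negative log2 fold change in KO (median -0.45), and both KO libraries were below all 3 female libraries for 4 of 4. *Rrm2*, the small subunit of ribonucleotide reductase, which is made in S phase, was at 240, 203 and 518 CPM in WT, 538, 489 and 674 CPM in HET, and 196 and 342 CPM in KO. KO1 was the lowest library and KO2 lay between WT1 and HET2, and the log2 fold change was -1.06 ± 0.44 (SE, adjusted p = 0.184). *Rrm1*, the large subunit, had 507, 373 and 774 CPM in WT, 804, 693 and 882 CPM in HET, and 450 and 625 CPM in KO, nearly the same order of libraries with a smaller spread. *Tk1*, the thymidine kinase of the salvage route and the least abundant of the 4 per kilobase, was at 121, 114 and 155 CPM in WT, 157, 164 and 174 CPM in HET, and 123 and 132 CPM in KO. For *Tyms*, which makes thymidylate, the log2 fold change was -0.34 ± 0.22 (SE).

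The E2F genes did not share the pattern of the genes they are known to act on. *E2f1*, an activator, was at 44.4, 36.1 and 29.0 CPM in WT, 39.7, 40.7 and 39.4 CPM in HET, and 46.8 and 34.3 CPM in KO, and KO1 was the highest library and WT3 the lowest. *E2f8*, a repressor of the family, was at 45.5, 46.8 and 37.0 CPM in WT, 71.8, 53.1 and 51.6 CPM in HET, and 45.1 and 42.6 CPM in KO, with all HET libraries above the rest. *E2f2* was at 8.05, 12.7 and 9.42 CPM in WT, 23.7, 15.8 and 9.96 CPM in HET, and 9.39 and 15.3 CPM in KO. Their log2 fold changes in KO were 0.16 ± 0.23, -0.11 ± 0.26 and 0.07 ± 0.48 (SE) in this order, and 0 of 3 had an unadjusted p under 0.05.

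**Figure D4:**
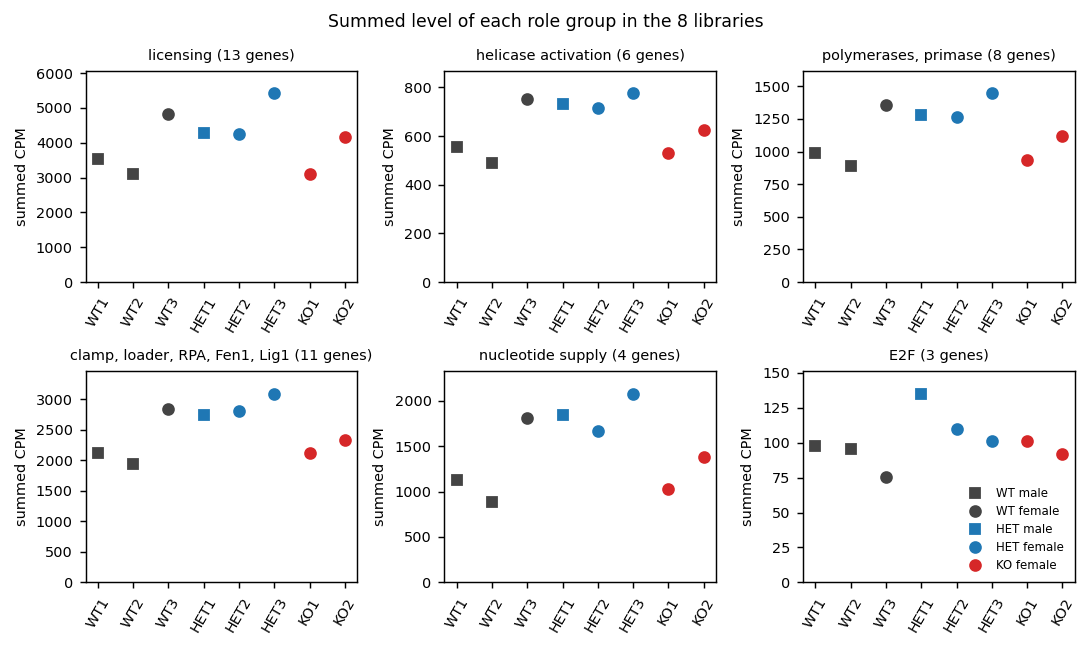
Summed CPM of each role group (panels) in the 8 libraries (x axis), black for WT, blue for HET, red for KO, squares for male and circles for female. In each panel but E2F, WT1, WT2 and KO1 lie lowest and HET3 highest, for example 889 to 1132 CPM against 2078 CPM for nucleotide supply.

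The other genes of these routes, 67 in a wider list that does not contain the 45, were mostly lower in KO too, with a negative log2 fold change for 50. Of them, 19 were lower (9.48% of all tested genes) and 2 higher (15.7%) at an unadjusted p under 0.05, 0 passed at an adjusted p under 0.05, and the median log2 fold change was -0.35. Among 37 other replication genes 11 were lower and 0 higher, among 20 other nucleotide genes 7 were lower and 2 higher, and among 10 other E2F and RB family genes 1 was lower. Without WT3 and HET3, 0 of the 67 were lower (1.05% of all genes) and 0 higher (4.18%) at an unadjusted p under 0.05.

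The 5 with the smallest p-values were *Orc5*, *Pole3*, *Ssbp1*, *Mcmbp* and *Impdh2*. *Orc5*, another ORC subunit, was at 109, 118 and 291 CPM in WT, 195, 218 and 327 CPM in HET, and 99.5 and 136 CPM in KO, a log2 fold change of -1.24 ± 0.31 (SE, adjusted p = 0.148). *Pole3* had -0.76 ± 0.21 (SE), *Ssbp1*, the mitochondrial single-strand binding protein, -0.57 ± 0.17 (SE), *Mcmbp*, an MCM-binding factor, -0.74 ± 0.22 (SE) and *Impdh2*, of guanine nucleotide synthesis, -0.72 ± 0.22 (SE). *Orc4* alone of the 67 had both KO libraries below all 6 others, at 105 and 115 CPM against 122 to 191 CPM, a count no higher than the 1.79% of all genes gives. The 2 higher genes, *Tk2* and *Samhd1*, work outside S-phase supply, in mitochondria and in the breakdown of deoxynucleotides, and were chosen for mention after their values were seen. *Samhd1* was at 127, 121 and 58.1 CPM in WT, 73.7, 63.9 and 55.0 CPM in HET, and 97.4 and 78.3 CPM in KO, nearly the opposite order of libraries to that of the replication genes.

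HET was compared with WT to ask whether loss of 1 copy of *Nfkbia* goes with a change of these genes. The log2 fold change was positive for 42 of the 45 genes, with a median of 0.27 against 0.01 over all genes. At an unadjusted p under 0.05, 4 genes were higher (1.91% of all tested genes) and 0 lower (1.95%), and 0 passed at an adjusted p under 0.05 (0%). DESeq2 gave 5 higher at an unadjusted p under 0.05 and 0 at an adjusted p under 0.05, for which the share of all genes is not given. The 4 were *Pcna* with 0.64 ± 0.14 (SE), *E2f8* with 0.57 ± 0.15 (SE), *Rrm2* with 0.72 ± 0.28 (SE) and *Pold1* with 0.41 ± 0.16 (SE), all at an adjusted p of 0.919 (edgeR). *E2f2* followed with 0.82 ± 0.36 (SE). *Pcna*, *E2f8* and *Pold1* had all 3 HET libraries above all 3 WT libraries, whereas for *Rrm2* HET2 lay under WT3.

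This comparison joined 2 unlike contrasts. In the male libraries HET1 was above the mean of WT1 and WT2 for 42 of 45 genes, with a median difference of 0.54 on the log2 CPM scale, while in the female libraries the mean of HET2 and HET3 was above WT3 for 24 of 45, with a median of 0.02. Of the 9 erythroid markers, 8 were higher in HET at an unadjusted p under 0.05, and HET1 held the highest summed level of them. The interaction of sex and HET had an unadjusted p under 0.05 with a larger male difference for 11 of 45 genes (6.71% of all genes) and with a smaller one for 0 (4.2%), among them *Gins1* with 1.09, *Rrm2* with 1.11 and *Orc2* with 1.11, and 0 at an adjusted p under 0.05. The count of 4 became 1 without HET1, 8 without HET2, 2 without WT1, 2 without WT2 and 21 without WT3. These counts stand without the share of all genes, so their shifts are not read as particular to the 45 genes. Without WT3 and HET3, 29 genes were higher at an unadjusted p under 0.05 (15% of all genes) and 18 passed an adjusted p under 0.05 (17.9% of all genes), but this rested on HET1 against WT1 and WT2, since HET2 was then the only female library.

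**Figure D5:**
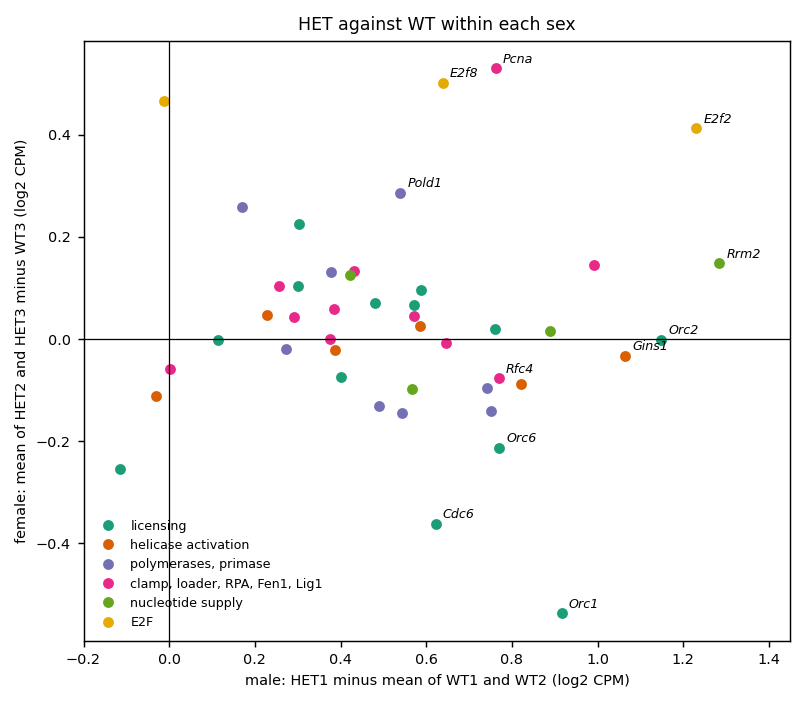
Each point is 1 gene, colored by role, with the difference of HET1 from the mean of WT1 and WT2 on the x axis and of the mean of HET2 and HET3 from WT3 on the y axis, both in log2 CPM. On the x axis 42 of 45 points lie above 0 with a median of 0.54, on the y axis 24 of 45 with a median of 0.02, and *Pcna*, *E2f8* and *Pold1* lie above 0 on both.

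The sex term, which stands for sex and recorded molecule together, shares the 3 female WT and HET libraries with the KO comparison. In the male libraries 39 of the 45 genes had a negative log2 fold change, with a median of -0.39 against 0.19 over all genes. At an unadjusted p under 0.05, 15 were lower (13.6% of all tested genes) and 1, *Pole*, higher (18.9%), and 0 passed at an adjusted p under 0.05 (0.0194% of all genes did with an absolute log2 fold change over 1). With DESeq2, 8 had an adjusted p under 0.05 (24.7% of all genes), and without HET1 25 did in edgeR (24.5%). With library size as the only scaling, 5 were lower and 2 higher. The smallest p-values were those of *Pold2* with -0.53 ± 0.16 (SE, adjusted p = 0.0909, edgeR), *Orc2* with -1.21 ± 0.40 (SE), *Rfc4* with -0.75 ± 0.25 (SE), *Gmnn* with -0.71 ± 0.24 (SE) and *Cdt1* with -0.69 ± 0.24 (SE). Of the 7 LT-HSC markers, 6 were higher in the male libraries at an unadjusted p under 0.05. The count of 15 became 8 without WT3, 6 without HET3, 33 without HET1, 1 without WT1, 2 without WT2 and 0 without both WT3 and HET3. Neither these counts nor those with library size only carry a share of all genes, so their shifts are not read as particular to the 45 genes.

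The libraries of 1 genotype also differed among themselves. KO1 was below KO2 for 37 of the 45 genes, with a median difference of -0.29 on the log2 CPM scale, and the LT-HSC markers summed to 1030.3 CPM in KO1 against 771 CPM in KO2. WT1 was above WT2 for 34 genes, with a median difference of 0.20, and HET2 below HET3 for 35, with a median of -0.24. Within WT, *Rrm2* ran from 203 to 518 CPM and *Orc2* from 65.6 to 214 CPM, with WT3 the high library each time.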

How the data were processed

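Bulk RNA-seq of 3 *IκBα* WT, 3 HET and 2 KO libraries, each of 500 sorted LT-HSCs from E14.5 fetal liver, was analyzed, and groups and replicate numbers were taken from the sample titles. The authors deposited raw read counts per Ensembl gene. Per the methods and the submitters' processing notes, 50-bp single-end reads were trimmed with Trim Galore 0.6.6, aligned to GRCm38 with STAR 2.7.8, kept where uniquely mapped and counted with STAR, with the strand setting not given in the sources used here. Unique mapping lowers genes with near-identical copies, and reads on overlapping genes are uncertain. Before counting, cDNA had been amplified by PCR without molecular identifiers, so the limit of 3 reads covers counting error only. A deposited table of normalized, sex-corrected log2 values was not used here.

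Gene names came from the GENCODE M21 annotation of GRCm38 (55227 of 55487 identifiers). Genes with fewer than 10 reads over the libraries compared were left out, leaving 20610, or 19542 for HET against WT. After TMM scaling, edgeR 4.0.16 in R 4.3.3 fitted sex and genotype, and its quasi-likelihood test (legacy form) gave p-values that were adjusted over all genes tested. A call needed an adjusted p under 0.05 and, in absolute log2 fold change, more than 1. SE is the log2 fold change divided by the square root of F. DESeq2 1.42.0 with apeglm 1.24.0 was the alternative. On simulated counts over 19689 genes, 116 of 200 genes given a log2 change of 2 in KO against WT/HET were recovered with 4 false calls. Levels per kb used the union of all annotated exons. Promoter sequences are from RefSeq (GRCm38.p6).

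The members and lists were chosen with earlier results of these data known. Of the stem cell marker list, 1 gene is not reported here and is in none of its sums. Named genes were the 10 with the smallest p in KO against WT/HET, the highest and lowest per kb in each role, the 5 with the smallest p in HET against WT and in the sex term, any with KO outside all 6 other libraries, and 5 such of the wider list. Other alternatives were other scalings and filters, other references, each library left out, and, added after seeing the data, leaving out WT3 and HET3, male libraries as the reference and the sex by HET interaction. The methods give separate mice of each genotype as the source, while the labels tie no library to an embryo, so p-values measure the spread between these libraries. Deviations from the genotype means correlated at 0.293, 0.198 and 0.59 between WT and HET of numbers 1 to 3. KO had 0.278 with WT and 0.244 with HET for number 1, and -0.346 and -0.124 for number 2. Libraries of unlike number were not compared, and the deviations of 2 KO libraries are exact opposites, so these values cannot show a pairing. No 2 libraries of a group differed by sampling noise alone, with a chi-square per gene of 20.7 or more.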

Additional observations from a re-analysis of the deposited data

Results flagged for a closer look

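For 7 of the 24 genes that the naming rule chose, every male HET against WT difference and the female difference had opposite signs, HET1 lying above WT1 and WT2 and both HET2 and HET3 below WT3. The share of all genes is not given for this count, and the mean differences had opposite signs for 20 of all 45 genes. Among the 7, female differences ran from -0.54 for *Orc1* to -0.02 for *Gins4*. The male ones ran from 0.39 for *Gins4* to 0.92 for *Orc1*. The difference between the sexes, as the interaction in log2, was 1.36 for *Orc1*, 0.97 for *Orc6*, 0.963 for *Cdc6*, 0.834 for *Rfc4*, 0.832 for *Pole2*, 0.67 for *Prim2* and 0.404 for *Gins4*. None passed in edgeR, with adjusted p-values of 0.439 to 0.511. Since WT3 is the only female WT library and one of the 2 with the least LT-HSC transcripts, and HET1 the only male HET library, each sign rests on 1 library. No gene that was tested had a single library far from the other 5 of WT and HET, over 24 genes tested at a level that chance passes in about 1 of 20.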

How the results depend on the processing

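The 45 genes had a negative median in KO under each alternative run, and their median relative to all genes was -0.58 with TMM, -0.56 with library size only, -0.58 with RLE and -0.58 with the upper quartile. Counts in this section stand without the share of all genes, so their shifts are not read as particular to the 45 genes. The count of 14 genes lower in KO at an unadjusted p under 0.05 was 9 with HET alone as the reference, 25 in the female libraries only, 4 (and 1 higher) with library size only, 0 with the male libraries as the reference (median -0.054), 0 without the sex covariate, 24 with the upper quartile and 1 without WT3 and HET3. With DESeq2, 6 passed at an adjusted p under 0.05, with or without shrinkage. Leaving out 1 library gave 0 to 27 lower, 0 higher, 0 at an adjusted p under 0.05 and a median of -0.52 to -0.31. Genes with both KO libraries below WT and HET numbered 28 in the female libraries only, 1 in the male only and 1 without WT3 and HET3, and 1 lay above with library size only. Leaving out 1 library gave 0 to 8 below, the 8 without KO2, 4 without WT2 and 1 without WT3, and 0 to 2 above, the 2 without KO1. With a KO library left out, only the other KO library has to lie outside the WT and HET libraries, a looser criterion. Thus the 8 were the genes with KO1 as the lowest library.

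For HET against WT the 4 higher genes became 7 with a filter of 1 read, 2 without the sex covariate and 29 without WT3 and HET3, where 18 passed at an adjusted p under 0.05. Leaving out 1 library gave 1 to 21 higher, 0 lower, 0 at an adjusted p under 0.05 and a median of 0.022 to 0.54. For the sex term, genes at an adjusted p under 0.05 numbered 8 with DESeq2, 3 with a filter of 1 read and 0 to 25 on leaving out 1 library, the 25 without HET1. The 15 lower genes became 5 with library size only and 0 without WT3 and HET3, and 1 to 33 on leaving out 1 library. The 1 higher gene became 2 in WT and HET only, 2 with library size only, 0 with a filter of 1 read, 0 with the upper quartile, 0 without WT3 and HET3, and 0 to 1 on leaving out 1 library, and the median was then -0.62 to -0.30.

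With the replicate number as a block, 0 genes were lower in KO, and in the sex term 0 were lower and 0 higher, whereas HET against WT kept its count within 1.5 times at 5 higher. The correlation of KO with the other groups was positive for number 1 and negative for number 2. The deviations of KO1 and KO2 from their mean are exact opposites, so these signs cannot show whether the number marks a block. What the lost KO calls reflect was not tested. The block turned the KO log2 fold change of *E2f1* to -0.18 and of *E2f2* to -0.31.

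Other reversals in KO were of genes near 0 in most cases, and the cause was not tested. *E2f2* was at -0.062 with HET alone, -0.26 with male libraries as the reference, -0.10 without the sex covariate, -0.025 with the upper quartile, -0.047 without HET3, -0.32 without KO2 against 0.38 without KO1, -0.078 without WT3 and -0.38 without WT3 and HET3. *E2f1* was at -0.083 without KO1, against 0.36 without KO2, and at -0.034 without WT3 and HET3, *E2f8* at 0.25 with WT alone and 0.18 with library size only, *Pole* at -0.26, -0.051 and -0.039 with male libraries as the reference, without the sex covariate and without WT3 and HET3, and *Mcm10* at 0.47, 0.041 and 0.044 with male libraries as the reference, without the sex covariate and without KO1, against -0.71 without KO2. *Pold1* was at -0.11 without KO2, against 0.36 without KO1, and *Mcm6* at 0.0063 with library size only. With male libraries as the reference *Pold2* was at 0.00041, *Fen1* at 0.28, *Orc2* at 0.16 and *Cdt1* at 0.18. Of the gene values 681 kept direction and side of the threshold, and 29 passed the threshold under an alternative alone. Depth did not limit these genes, the lowest of which, *Fen1*, had 3.13 CPM or more.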
